A study of Homo sapiens with 6 samples.

Results

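The ID proteins and the SMAD feedback genes were followed in EndoC-βH1, a β cell line of human origin, given the vehicle DMSO (3 libraries) or 1 µM AZD7762 (3 libraries), a competitive inhibitor of the checkpoint kinases CHEK1 and CHEK2. The members were fixed by name as early target genes of BMP and TGF-β signaling, ID1, ID2, ID3, ID4, SMAD6, SMAD7, SKIL and BAMBI, which are 8 of the 60671 gene identifiers in each count file. Each symbol matched a single Ensembl identifier, and the list was chosen with earlier results of these data known. All 6 libraries came from wild-type cells of 1 established line, which stands in for β cells but is a transformed line of fetal pancreas origin. Vehicle or compound was present while the cells were starved for 1 h in 0.5 mM glucose and during the following 1 h of stimulation, for which 0.5 mM and 20 mM glucose are both named without saying which library received which. A difference in that glucose step between libraries cannot be told apart from the spread between replicates or, if it followed the groups, from the compound. The labels number the replicates and do not say whether they were separate cultures, so the p-values measure only the spread between these libraries.

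BMPs, activins and TGF-βs bind pairs of serine/threonine kinase receptors, which phosphorylate the receptor SMADs. These join SMAD4, enter the nucleus and switch on target genes within the first hours. Among the fastest targets are the ID genes, whose products are helix-loop-helix proteins without a DNA-binding region that hold E proteins and their tissue-specific bHLH partners away from DNA. Other fast targets feed back on the pathway. SMAD6 and SMAD7 are inhibitory SMADs that block the receptors, SKIL encodes the corepressor SnoN that binds SMAD complexes, and BAMBI encodes a decoy receptor without a kinase domain. In endocrine pancreas, bHLH factors such as NEUROD1 drive hormone genes, and ID proteins are known as their antagonists.

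The libraries held between 20486391 and 29402440 counts on genes, and 3 counts corresponded to between 0.102 and 0.144 normalized CPM (counts scaled to library size with edgeR's TMM factors, which lay between 0.983 and 1.02). The summed level of 7 β cell markers lay between 2436 and 3253 CPM in DMSO and between 2857 and 3315 CPM in AZD7762 libraries, with each marker detected. Of 3 endothelial markers found in the files, CDH5 and KDR had no count in any library, and 6 stromal markers summed to between 15.1 and 20.5 CPM in all libraries. Of the 4 stromal markers tested, COL1A2 had 2.74 to 3.24 CPM in DMSO and 3.90 to 4.64 CPM in AZD7762 libraries (log2 fold change 0.58, adjusted p = 0.125, edgeR), and the groups of COL1A1, COL3A1 and PDGFRB overlapped. The 4 α cell markers summed to between 1777 and 2083 CPM in DMSO and between 1964 and 2200 CPM in AZD7762 libraries, nearly all of it TTR, while GCG stayed under 1.95 CPM. The 3 δ cell markers summed to between 233 and 262 CPM in DMSO and between 271 and 296 CPM in AZD7762 libraries, mostly SST (log2 fold change 0.24, adjusted p = 0.160, edgeR). The other δ cell markers, HHEX and LEPR, had log2 fold changes of -0.19 and -0.08 with overlapping groups. The part of the differences in COL1A2 and SST in the results for the members was not tested. In bulk RNA, fewer cells that express a gene and less RNA per cell cannot be told apart.

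The promoter windows of 4 members are shown here because ID1 and ID2 were the members whose decrease passed the test and SKIL and SMAD7 had the next smallest p. Each window runs from 250 bases before to 50 bases after a transcription start (RefSeq, GRCh38.p14), 5′ to 3′ on the strand of the gene, and capitals mark GGCGCC (a GC-rich SMAD element), CAGAC (a SMAD box) and TGACG (the core of a cAMP response element) on either strand.
ID1, chr20:31605039-31605338, plus strand: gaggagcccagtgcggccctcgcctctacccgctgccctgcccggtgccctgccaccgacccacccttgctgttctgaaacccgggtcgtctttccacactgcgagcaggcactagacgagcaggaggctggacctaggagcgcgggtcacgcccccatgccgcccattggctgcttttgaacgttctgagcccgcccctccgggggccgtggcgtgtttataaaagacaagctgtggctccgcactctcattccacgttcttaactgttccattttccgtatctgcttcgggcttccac
ID2, chr2:8681806-8682105, plus strand: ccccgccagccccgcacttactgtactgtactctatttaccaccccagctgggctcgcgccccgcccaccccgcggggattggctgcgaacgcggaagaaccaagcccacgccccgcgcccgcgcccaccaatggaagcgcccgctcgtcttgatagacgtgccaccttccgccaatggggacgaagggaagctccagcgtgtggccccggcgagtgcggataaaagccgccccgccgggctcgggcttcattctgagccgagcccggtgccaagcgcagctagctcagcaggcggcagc
SMAD7, chr18:48950916-48951215, minus strand, the most upstream of 3 listed starts: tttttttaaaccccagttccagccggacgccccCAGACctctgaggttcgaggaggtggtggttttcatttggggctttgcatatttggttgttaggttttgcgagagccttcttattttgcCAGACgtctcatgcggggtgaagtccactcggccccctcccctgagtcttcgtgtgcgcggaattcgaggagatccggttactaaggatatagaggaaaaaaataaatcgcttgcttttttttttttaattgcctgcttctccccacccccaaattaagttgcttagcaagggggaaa
SKIL, chr3:170357465-170357764, plus strand: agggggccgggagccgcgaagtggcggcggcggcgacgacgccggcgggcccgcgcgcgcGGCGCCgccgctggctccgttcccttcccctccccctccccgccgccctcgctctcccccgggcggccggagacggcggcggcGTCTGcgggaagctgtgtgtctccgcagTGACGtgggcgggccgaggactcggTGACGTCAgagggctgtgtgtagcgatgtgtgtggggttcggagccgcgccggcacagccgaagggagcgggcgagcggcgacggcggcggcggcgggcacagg

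None of the 3 motifs was found in the windows of ID1 and ID2. The SMAD7 window held 2 CAGAC boxes. The SKIL window held 1 GGCGCC, 1 CAGAC box and 3 matches to TGACG, of which 2 overlap in the palindrome TGACGTCA. Over the first listed windows of the 8 members, GGCGCC was present in 2, CAGAC in 5 and TGACG in 2, while 19.2%, 45.3% and 24.6% of all 35116 windows in the table held them. Matches within the same window can share bases, as a CAGAC box and a TGACG match do in ID3. These matches describe the letters of short windows and not binding, and response elements outside them were not searched.

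The levels of the members were compared per kilobase of exon, in normalized CPM per kb. With DMSO, ID2 had the highest level (137 ± 4.23, SD, n = 3), followed by ID4 (67.8 ± 1.87), SKIL (14.0 ± 0.295), ID3 (10.5 ± 0.831), ID1 (9.74 ± 1.17) and SMAD7 (1.20 ± 0.0842). BAMBI (0.121 ± 0.0474) and SMAD6 (0.0658 ± 0.0135) were lowest. The ranges over 3 libraries overlapped between the neighbors ID3 and ID1 and between BAMBI and SMAD6, and the other neighbors in this order did not overlap. With coding length in place of exon length, BAMBI and SMAD6 changed places and the rest of the order was kept. With AZD7762 the order by exon length was the same, and by that length ID1 (4.22 ± 1.32) lay below the range of ID3 (8.33 ± 1.24). By coding length the mean of ID1 with DMSO (24.7) was already well below that of ID3 (43.8).

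**Figure D1:**
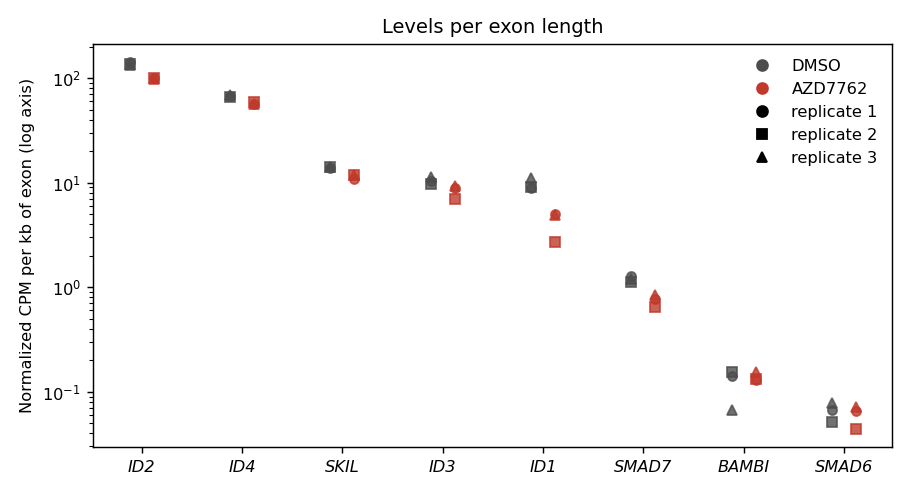
Normalized CPM per kb of exon of the 8 genes on a log axis, with 1 point per library, DMSO in gray and AZD7762 in red. ID2 and ID4 lay at 56.1 or more in all libraries and SMAD6 and BAMBI at 0.155 or less.

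ID1 (ENSG00000125968, chromosome 20 of GRCh37, 30193086 to 30194318), a short gene known as a direct BMP target, had the largest change of the members. Its normalized CPM were 11.0, 11.3 and 13.7 with DMSO and 6.24, 3.33 and 6.05 with AZD7762. All libraries with AZD7762 lay below all with DMSO, and AZD7762 replicate 2, with 70 counts, was the lowest. That library was also the lowest for ID3, SMAD6 and SMAD7, but not for ID2, ID4, SKIL or BAMBI. ID1 fell by 1.19 on the log2 scale (standard error 0.182, 95% interval -1.58 to -0.79, adjusted p = 0.00589 in edgeR's quasi-likelihood test), to 0.439 of its DMSO level. Without AZD7762 replicate 2 the fall was 0.96, and it was 1.24 when trends with GC content and length were taken out of each library.

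ID2 (ENSG00000115738, chromosome 2, 8818975 to 8824591), the most abundant member, fell by a smaller amount with very little spread. Its normalized CPM were 314, 304 and 295 with DMSO and 221, 221 and 219 with AZD7762, so that the groups lay far apart relative to their spread. The log2 fold change was -0.47 (standard error 0.0551, 95% interval -0.59 to -0.35, adjusted p = 0.000743, edgeR), or 0.723 of the DMSO level. Of the exon length of ID2, 6.55% overlaps the antisense gene ID2-AS1, and those reads cannot be assigned with certainty because it is not stated whether the counting used strand.

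ID3 (ENSG00000117318, chromosome 1, 23884417 to 23885992) and ID4 (ENSG00000172201, chromosome 6, 19837601 to 19842428) did not pass the threshold. For ID3 the libraries gave 15.5, 14.5 and 17.0 CPM in DMSO and 13.2, 10.4 and 13.8 CPM in AZD7762 libraries, which did not overlap but lay close (log2 fold change -0.32, 95% interval -0.57 to -0.08, adjusted p = 0.357, edgeR). For ID4, the member known for its role in neural and mammary progenitors, they gave 263, 255 and 269 CPM in DMSO and 220, 230 and 217 CPM in AZD7762 libraries. The groups of ID4 were also apart (log2 fold change -0.24, 95% interval -0.36 to -0.12, adjusted p = 0.0966, edgeR). In edgeR's fit the 95% intervals of ID1 and ID3 did not meet.

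Summed over ID1 to ID4, the mean level of the DMSO libraries was 225 ± 3.49 CPM per kb and that of the AZD7762 libraries 169 ± 0.816 (SD, n = 3 per group, p = 0.1 in a two-sided exact permutation test, the smallest that 3 against 3 allows). ID2 made up 61.0% of this sum with DMSO and 58.7% with AZD7762, ID4 30.1% and 33.9%, ID3 4.64% and 4.92%, and ID1 4.32% and 2.49%. ID1 and ID3 had similar levels per kb of exon with DMSO, while per kb of coding length their DMSO means were 24.7 and 43.8. The ratio of ID1 to ID3 per kb of exon was 0.864, 0.948 and 0.977 with DMSO and 0.574, 0.390 and 0.531 with AZD7762. Its groups did not overlap (exact permutation p = 0.1, the smallest possible). The sum, the shares and this ratio were chosen after the values had been seen.

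**Figure D2:**
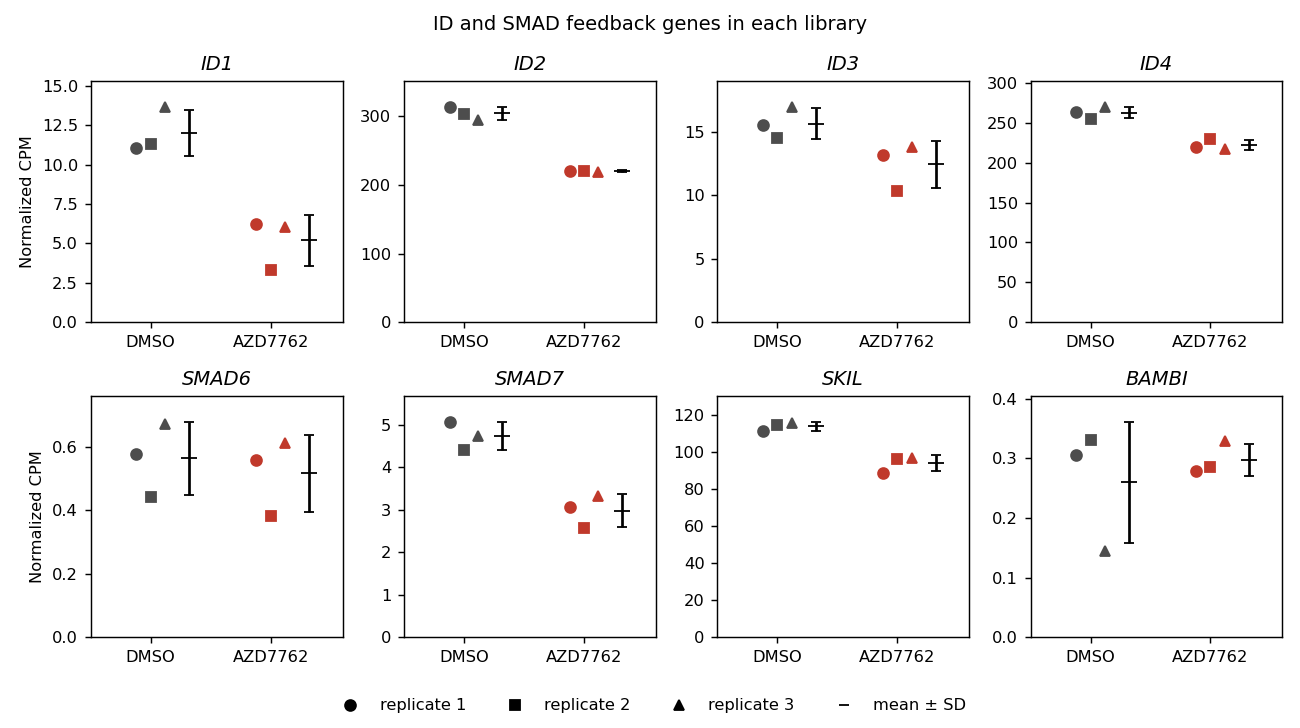
Normalized CPM of the 8 genes in each library, with axes starting at 0, 1 symbol per replicate and bars for the mean and SD of 3 libraries. For ID1, ID2, ID3, ID4, SMAD7 and SKIL the AZD7762 points lie below all DMSO points, while those of SMAD6 and BAMBI are interspersed.

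Of the feedback genes, SMAD7 (ENSG00000101665, chromosome 18, 46446223 to 46477335) had the lowest ratio between the groups. It gave 5.08, 4.41 and 4.74 CPM in DMSO and 3.06, 2.57 and 3.33 CPM in AZD7762 libraries. The groups did not overlap, and the difference missed the threshold (log2 fold change -0.67, 95% interval -0.98 to -0.36, adjusted p = 0.0626, edgeR). SKIL (ENSG00000136603, chromosome 3, 170075130 to 170114623) was more abundant, with 111, 115 and 116 CPM in DMSO and 88.8, 96.3 and 96.5 CPM in AZD7762 libraries. Its groups were apart as well (log2 fold change -0.28, 95% interval -0.41 to -0.15, adjusted p = 0.0618, edgeR).

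SMAD6 (ENSG00000137834, chromosome 15, 66994574 to 67075187), the inhibitory SMAD that mainly acts on BMP receptors, was barely transcribed, with between 8 and 17 counts per library. Its normalized CPM were 0.576, 0.441 and 0.671 with DMSO and 0.557, 0.380 and 0.610 with AZD7762. These values overlapped (log2 fold change -0.10, 95% interval -0.79 to 0.59, adjusted p = 0.949, edgeR), so that a change as large as that of SMAD7 was not detectable at this depth. BAMBI (ENSG00000095739, chromosome 10, 28966439 to 28971861) had 9, 9 and 3 counts with DMSO and 7, 6 and 7 counts with AZD7762 and was removed by the filter on low counts. A fit without the filter gave BAMBI a log2 fold change of 0.13 with a standard error of 0.512 (adjusted p = 0.971, edgeR), so no difference was detectable at this depth.

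Of the 8 members, 7 were tested and 2, ID1 and ID2, passed edgeR's test (adjusted p under 0.05), both lower with AZD7762. Among all 17649 genes tested, 0.708% were called and 0.351% were called lower. At an unadjusted p under 0.05, 6 members were lower, against 5.25% of all genes tested. In the same 6, ID1, ID2, ID3, ID4, SMAD7 and SKIL, all AZD7762 libraries lay below all DMSO libraries, which held for 8.25% of all genes. Since the members were chosen with earlier results of these data known, these shares are descriptive and not a test of the list. The median log2 fold change of the 7 was -0.32, beside 0.01 over all genes, and their median within-group SD on the log2 scale was 0.149, beside 0.119. The number of members called lay between 2 and 5 over the alternatives tried, and SMAD7, SKIL and ID4 were those that joined.

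**Figure D3:**
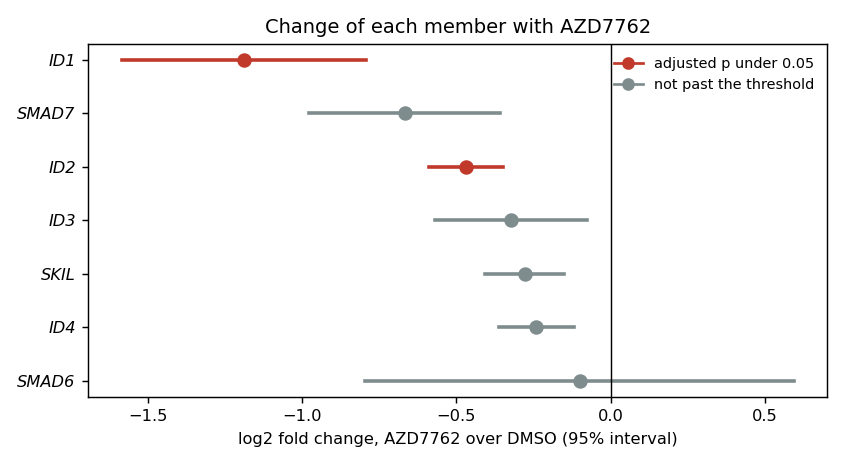
Fitted log2 fold change of the 7 tested members, AZD7762 over DMSO, with 95% intervals from edgeR's quasi-likelihood fit. ID1 (-1.19) and ID2 (-0.47), in red, passed the threshold, and the interval of SMAD6 is the only one that spans 0.

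The remaining pathway was described with 91 genes listed by role, of which 65 were tested. Of these, 3 were called, all higher with AZD7762 (0.357% of all genes were called higher), and at an unadjusted p under 0.05, 10 were lower (5.25% of all genes) and 4 were higher (4.43% of all genes). Their median log2 fold change was -0.05. Of 12 tested ligands, BMP4 alone was called. BMP5, the ligand with most counts, had 215 ± 10.1 CPM in DMSO and 207 ± 4.05 CPM in AZD7762 libraries (log2 fold change -0.05, adjusted p = 0.833, edgeR).

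No gene was called in edgeR's test among 12 tested receptors and co-receptors (3 lower at an unadjusted p under 0.05), 6 extracellular antagonists (1 higher), 6 receptor and common SMADs (1 lower) and 13 intracellular SMAD regulators (1 lower). Over all genes these shares were 5.25% lower and 4.43% higher. The most counted receptor was ACVR1C, the type I receptor ALK7 of β cells, with 1417 ± 28.3 CPM in DMSO and 1205 ± 73.5 CPM in AZD7762 libraries (log2 fold change -0.23, adjusted p = 0.211, edgeR). It was called in 4 of 16 alternatives, among them DESeq2's Wald test (adjusted p = 0.0492). With a library left out ACVR1C was called in 0 fits, and its adjusted p reached 0.627 (edgeR, without AZD7762 replicate 1). The antagonist GREM1, a secreted BMP trap, had 192 ± 7.49 and 191 ± 10.0 CPM, and NBL1 had 6.70 ± 0.877 and 8.01 ± 0.171 CPM (log2 fold change 0.26, adjusted p = 0.508, edgeR), with 18.6% of its exons shared with a gene on the same strand. SMAD5, a BMP receptor SMAD, had 160 ± 5.03 and 153 ± 7.51 CPM, and its relative SMAD9 had 19.1 ± 0.363 and 16.9 ± 0.0559 CPM (log2 fold change -0.18, adjusted p = 0.462, edgeR). FKBP1A, which binds type I receptors, had 251 ± 14.2 and 263 ± 12.5 CPM, and the ubiquitin ligase SMURF2 had 32.6 ± 1.25 and 28.5 ± 1.82 CPM (log2 fold change -0.19, adjusted p = 0.407, edgeR).

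**Figure D4:**
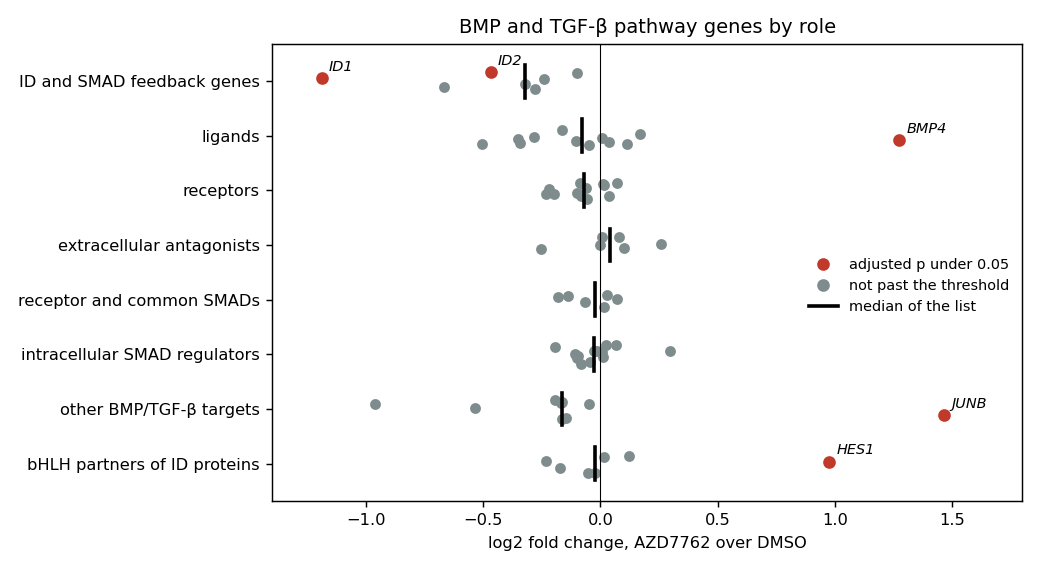
Fitted log2 fold changes of the tested genes by role, 1 point per gene, with a black line at the median of each list and red points for an adjusted p under 0.05. ID1 and ID2 lie to the left, whereas BMP4, JUNB and HES1 are the red points to the right, and the medians of the 7 other lists lie between -0.16 and 0.04.

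BMP4 (ENSG00000125378, chromosome 14, 54416454 to 54425479), a ligand of the BMP receptors, had 7.68, 7.03 and 7.33 CPM in DMSO and 14.9, 20.8 and 17.8 CPM in AZD7762 libraries. It rose 2.42-fold (log2 fold change 1.28, standard error 0.122, adjusted p = 0.000107, edgeR), in the direction opposite to ID1 and ID2. An antisense gene covers 16.3% of the BMP4 exons.

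Among 9 other tested target genes of BMP or TGF-β, JUNB was the 1 called. The other 8 had log2 fold changes below 0, as did 8407 of all 17649 genes, and 1 of them had an unadjusted p under 0.05. The median over the 9 was -0.16. JUNB, a subunit of the AP-1 transcription factor and an immediate early gene that many signals induce, had 27.8, 20.4 and 45.1 CPM in DMSO and 91.2, 64.2 and 99.6 CPM in AZD7762 libraries (log2 fold change 1.47, adjusted p = 0.00589, edgeR). Without AZD7762 replicate 1 this call was lost (log2 fold change 1.40, adjusted p = 0.133, edgeR), and an antisense gene covers 14.2% of the JUNB exons. KLF10, the target with most counts, had 151 ± 10.0 and 146 ± 3.59 CPM (log2 fold change -0.05, adjusted p = 0.851, edgeR).

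Of 7 tested bHLH genes whose products pair with ID proteins or with their E protein partners, HES1 was called. HES1, a bHLH repressor best known as a Notch target, had 2.23, 2.50 and 2.06 CPM in DMSO and 5.25, 4.13 and 3.99 CPM in AZD7762 libraries (log2 fold change 0.98, adjusted p = 0.0101, edgeR). The call was lost without DMSO replicate 1 (log2 fold change 0.96, adjusted p = 0.0536, edgeR) and without AZD7762 replicate 1 (log2 fold change 0.83, adjusted p = 0.11, edgeR). NEUROD1, the most counted of them and an activator of the insulin gene, had 1427, 1366 and 1360 CPM in DMSO and 1141, 1234 and 1161 CPM in AZD7762 libraries. These groups did not overlap (log2 fold change -0.23, adjusted p = 0.182, edgeR). NEUROD1 was called in 4 of 16 alternatives, among them DESeq2's Wald test (adjusted p = 0.0300). With a library left out it was called in 0 fits, and its adjusted p reached 0.518 (edgeR, without AZD7762 replicate 1). The E proteins TCF3, TCF4 and TCF12 had log2 fold changes of 0.12, -0.05 and 0.02, and each had overlapping groups.

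**Figure D5:**
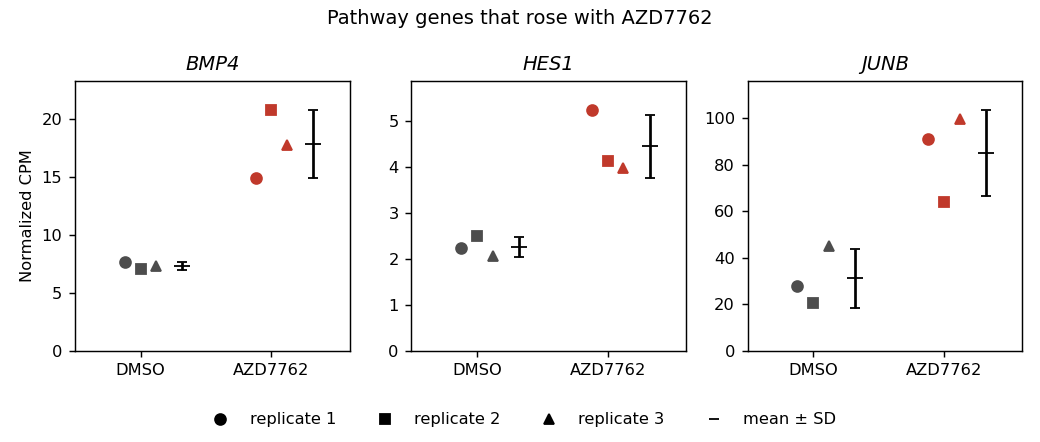
Normalized CPM of BMP4, HES1 and JUNB in each library, with axes starting at 0, 1 symbol per replicate and bars for the mean and SD of 3 libraries. In each of the 3 genes the lowest AZD7762 library lies above the highest DMSO library, as for JUNB (64.2 against 45.1).

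The genes whose log2 CPM followed those of the called members most closely over the 6 libraries were described by Pearson's r. For ID1 these were SDAD1P1 (r = 0.991), USP22 (r = 0.987) and PRMT3 (r = 0.986), none of them called in edgeR's test. For ID2 they were TRIB2 (r = 0.993), SOX4 (r = 0.992) and CENPQ (r = 0.991), of which SOX4, a transcription factor of endocrine development, was called (log2 fold change -0.90, adjusted p = 7.79e-06, edgeR). The 6 points fall into 2 treatment groups, so these coefficients take in the difference between the groups as well as the spread within them. The 2 parts were not separated, and the genes were picked as the highest r over all genes tested.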

How the data were processed

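RNA-seq of 3 DMSO and 3 AZD7762 libraries was analysed from the count files. The authors checked reads with FastQC 0.10.1, trimmed them with cutadapt 1.18, aligned them to GRCh37 and counted them with HTSeq-count. Libraries were polyadenylated RNA from an unstranded or a stranded TruSeq kit. The kit of each library, the aligner, annotation release and strand setting are not given in the sources used here. The deposited values are raw counts per gene, without normalization.

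A GENCODE annotation on GRCh37, which lists 58646 of the 60671 identifiers, gave gene symbols, coordinates, exon lengths and GC content. Counts were fitted in R 4.3.3 with edgeR 4.0.16 (filterByExpr, TMM, quasi-likelihood test, treatment as the only term, two-sided, Benjamini-Hochberg adjustment over 17649 genes, threshold 0.05). Standard errors are the absolute log2 fold change over the root of the F statistic, and 95% intervals use the degrees of freedom of that test. Counting floors of 3 counts cover counting error only. Replicates differed by more than sampling noise (chi-square per gene between 4.51 and 8.62).

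The members and lists were chosen with earlier results of these data known. The lists were ligands, receptors, antagonists, SMADs, regulators, other targets, bHLH partners and markers of 5 cell types. Named were all members, each list gene called, the gene with the highest mean CPM and the smallest p in each pathway list, and the 3 genes closest to each called member. Alternatives were other scalings, filters and tests (DESeq2 1.42.0, limma 3.58.1), the replicate number as a term, GC and length trends taken out, and leaving out each library. The procedure was also run on counts simulated from the mean and estimated spread of each gene in these data. That run cannot show how well the fitted model describes these libraries.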

Additional observations from a re-analysis of the deposited data

How the results depend on the processing

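ID1 and ID2 were called and lower in each of 16 alternatives, with log2 fold changes between -1.36 and -0.96 and between -0.50 and -0.45. ID3, ID4, SMAD7 and SKIL kept their direction in each, and ID3 was called in 0, ID4 in 5, SMAD7 in 6 and SKIL in 7. For these 4 the highest adjusted p were 0.742, 0.321, 0.296 and 0.289, and none of them was called with a library left out. SMAD6 could not be tested with at least 10 counts in every sample, and its sign turned without DMSO replicate 3 (0.023) and without AZD7762 replicate 2 (0.059), within a range from -0.256 to 0.059 when each library was left out. Against 2 members called, there were 5 with library totals alone, without a filter and with edgeR's likelihood ratio test, 4 with upper-quartile factors, with DESeq2's Wald test and with GC and length trends taken out, and 2 in each fit without a library. Against 125 genes called, there were 330 without a filter, 267 with the likelihood ratio test, 221 with GC and length trends taken out, and from 77, without AZD7762 replicate 1, to 168, without DMSO replicate 3. Against 3 pathway genes called, there were 6 without a filter, 5 with DESeq2's Wald test, 5 with the likelihood ratio test, and from 1, without AZD7762 replicate 1, to 3 when each library was left out. Of the 125, 63 were higher and 62 lower, and with library totals alone 59 were higher and 90 lower. The causes were not tested.

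With the replicate number as a block, 378 genes, 5 members and 6 pathway genes were called. The labels do not say that equal numbers pair the samples, so the main fit did not use them. The deviations of same-numbered libraries correlated at 0.0533, 0.124 and 0.210. Those of differently numbered libraries correlated between -0.253 and 0.175. DMSO replicate 2 and DMSO replicate 3 correlated best with the AZD7762 library of the same number, and DMSO replicate 1 with AZD7762 replicate 2 (0.175). Whether the numbers mark a shared batch cannot be settled from these values. SMAD6 and BAMBI were limited by depth. With 1 library left out, a group of 2 shares its estimate of spread with the other group.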

Other observations

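SNAI1, a repressor of epithelial genes and a TGF-β target, was near the lower end of detection and differed in the direction of the ID genes, with 0.880 to 1.39 CPM over the 3 DMSO libraries and 0.557 to 0.618 CPM over the 3 AZD7762 libraries. It did not pass the threshold (log2 fold change -0.96, 95% interval -1.55 to -0.37, adjusted p = 0.211, edgeR). BMP2, a ligand close to BMP4, had 5.76, 4.71 and 6.33 CPM with DMSO and 3.98, 4.47 and 3.33 CPM with AZD7762, so that the groups did not overlap (log2 fold change -0.50, adjusted p = 0.254, edgeR). Both genes were named after their values had been seen.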
